A study of Homo sapiens with 5 samples.

Results

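The stretch of human chromosome 1 at band 1q21 that carries the S100 genes and the epidermal differentiation genes was followed in HL60 cells at 3 states. It was taken as the 4 bins of 500 kb from 152.0 to 154.0 Mb (hg19), which hold FLG (152.0 to 152.5 Mb), IVL (152.5 to 153.0 Mb), S100A8, S100A9 and S100A12 (153.0 to 153.5 Mb) and S100A4 (153.5 to 154.0 Mb). These are 4 of the 6083 bins on the autosomes and chromosome X, and they were read together with 10 bins on either side (147.0 to 159.0 Mb). The region was chosen by a rule of genes and positions, but with the compartment scores, coverage and contacts of these same matrices known, so these values are described here and not tested.

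S100 proteins are small calcium-binding proteins that act as dimers. S100A8 and S100A9 pair to form calprotectin, a major cytosolic protein of neutrophils and monocytes, and S100A12 is released by the same cells as an inflammatory signal. S100A4 binds non-muscle myosin and is linked to cell motility. FLG encodes filaggrin, which bundles keratin filaments in the outer layers of the skin, and IVL encodes involucrin, a protein cross-linked into the envelope of cornified keratinocytes. The myeloid S100 genes thus lie beside genes known mainly from keratinocytes.

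The assay was Hi-C, in which crosslinked chromatin is cut (here with HindIII), DNA ends that are neighbours in the nucleus are ligated, and the ligated pairs are sequenced and counted. HL60 is an established human promyelocytic leukemia line, and the 5 samples were cells treated with all-trans retinoic acid (ATRA, 1 library), cells treated with the phorbol ester TPA (2 libraries) and untreated cells (2 libraries). ATRA is known to drive HL60 toward granulocyte-like cells and TPA toward macrophage-like cells; the labels state no dose or time. Each state was deposited as 1 matrix with its libraries pooled, so there is no spread between replicates, no p-value is given, and every interval is a 95% exact interval for counting error only, which does not cover PCR duplicates or differences between cultures. Both treated matrices are set against the same untreated matrix, so their changes share its counting error.

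The ATRA, TPA and untreated matrices held 9632300, 10423501 and 10628045 contacts on these chromosomes, with a median of 3272, 3466 and 3461 contacts per bin. Contacts within a chromosome made up 31.5%, 36.3% and 39.0% of them, so contacts on chromosome 1 were always divided by the mean of the same matrix at the same distance. Of the 24 bins of the region, 22 passed a minimum of 0.2 times the median coverage; those starting at 148.0 and 148.5 Mb did not. Expression was not measured in these files, and nothing here says whether a gene was active.

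In the order of genes given by RefSeq (GRCh38.p14), the run from S100A10 to S100A1 holds 63 protein-coding genes, among them 16 S100 genes, 7 filaggrin-like genes, 19 late cornified envelope (LCE) genes and 11 small proline-rich (SPRR) genes. The members follow each other as FLG, IVL, S100A9, S100A12, S100A8 and S100A4. Between FLG and IVL lie 25 genes, 19 of them LCE genes, and between IVL and S100A9 lie 16, 11 of them SPRR genes. Between S100A8 and S100A4 lie 4. Only the members were placed in bins, so which bin holds the 16 genes between IVL and S100A9 was not determined, and the S100A8, S100A9 and S100A12 bin may hold skin genes as well.

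Promoters of the members were read from RefSeq (GRCh38.p14), with all 6 genes matched by symbol and 8 windows in all, since S100A8 has 3. The 250 bases before the start of 3 of them are shown, for the bin at the left end of the cluster, the bin of S100A8, S100A9 and S100A12, and the bin at the right end. Capitals mark TATAAA, the core of the TATA box, and AAGCTT, the site cut by HindIII in this assay; both were searched on both strands and their letters share no overlap in these windows.
FLG, chr1:152325240-152325489, minus strand: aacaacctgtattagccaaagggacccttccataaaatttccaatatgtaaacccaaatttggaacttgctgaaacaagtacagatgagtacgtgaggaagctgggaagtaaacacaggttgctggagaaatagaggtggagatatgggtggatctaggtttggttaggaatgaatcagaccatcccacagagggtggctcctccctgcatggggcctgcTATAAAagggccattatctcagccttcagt
S100A12, chr1:153375622-153375871, minus strand: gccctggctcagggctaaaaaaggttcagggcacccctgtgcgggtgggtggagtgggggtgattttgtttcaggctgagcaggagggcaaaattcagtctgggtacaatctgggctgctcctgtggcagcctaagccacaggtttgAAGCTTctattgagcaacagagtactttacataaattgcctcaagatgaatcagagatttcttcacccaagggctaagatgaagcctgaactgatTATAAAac
S100A4, chr1:153545807-153546056, minus strand: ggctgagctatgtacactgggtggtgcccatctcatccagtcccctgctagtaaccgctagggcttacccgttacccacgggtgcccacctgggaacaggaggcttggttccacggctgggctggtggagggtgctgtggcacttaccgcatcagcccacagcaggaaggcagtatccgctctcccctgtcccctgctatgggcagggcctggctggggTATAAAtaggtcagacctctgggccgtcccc
TATAAA was found in 7 of the 8 windows, with at least 1 window for each of the 6 genes and 1 match shared by 2 overlapping windows of S100A8, against 10.7% of 35116 RefSeq promoter windows of the same length. It began 30 bases before the start of FLG and of IVL, 29 before S100A9 and before 1 of the 3 starts of S100A8, 31 before S100A4 and 8 before S100A12. AAGCTT was found only in the S100A12 window, 103 bases before the start, against 5.02% of all windows. These are matches of letters, and a single cut site has no readable effect on a bin of 500 kb.

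In TPA-treated cells the FLG and IVL bins lay on the B side of chromosome 1, whereas in untreated cells both lay in A. The compartment score used for this is the leading eigenvector of the contact pattern of chromosome 1 in units of its SD, with positive values for A, the gene-rich and mostly active side, and negative values for B, the gene-poor side. The FLG bin scored 0.53 in ATRA, -0.70 in TPA and 0.97 in untreated cells. The IVL bin scored 0.05 in ATRA, -0.65 in TPA and 0.62 in untreated cells. ATRA thus lay between the other states in both bins.

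The bin with S100A8, S100A9 and S100A12 scored 0.82 in ATRA, 0.12 in TPA and 1.16 in untreated cells, so it was lower in both treated states without entering B. The S100A4 bin scored 1.76 in ATRA, 1.86 in TPA and 1.70 in untreated cells, which placed it among the highest bins of the chromosome in each (ranks 441, 439 and 443 of 449 from the lowest). The score of the cluster therefore stepped up between the S100A8, S100A9 and S100A12 bin and the S100A4 bin in every state.

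**Figure D1:**
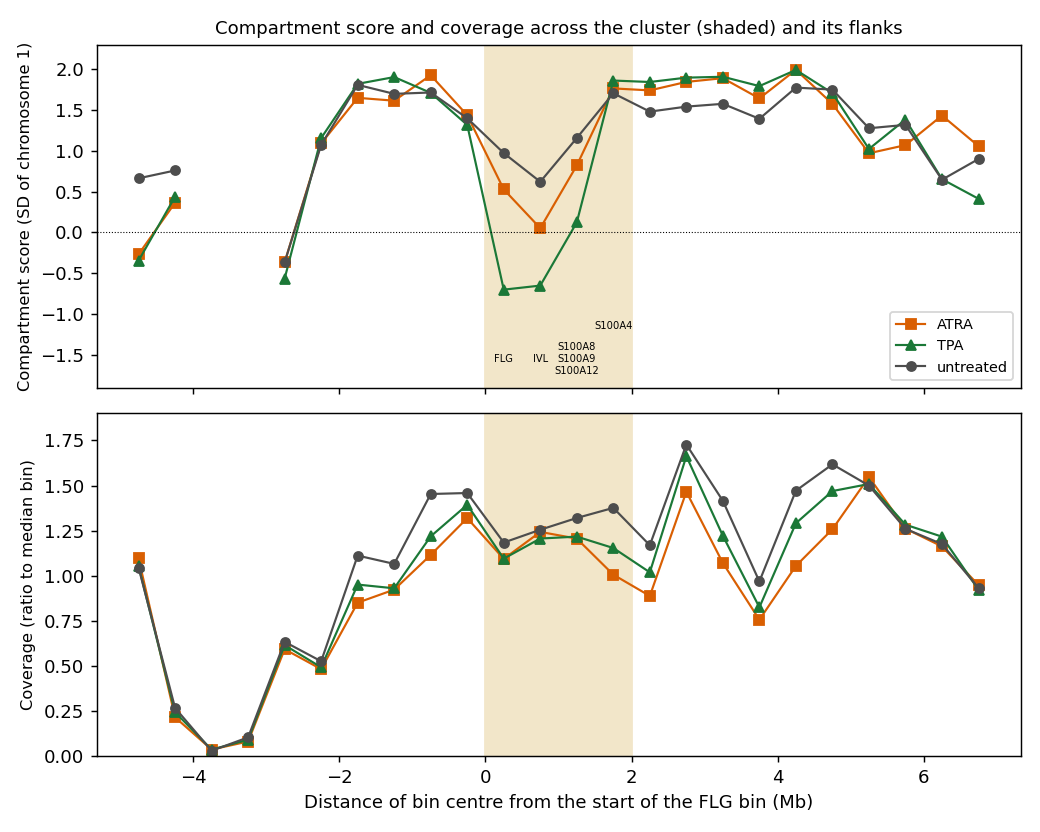
Compartment score (upper panel, in SD of chromosome 1) and coverage (lower panel, relative to the median bin of the matrix) of each 500 kb bin against its distance from the start of the FLG bin, for ATRA, TPA and untreated cells. The cluster is shaded; its first 3 bins form a dip that reaches -0.70 in TPA, 0.05 in ATRA and 0.62 in untreated cells, between neighbouring bins that score above 1 on both sides in all 3 matrices, and the gap on the left is the pair of bins below the coverage minimum.

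Set against untreated cells, the change in score in TPA was -1.67 for the FLG bin, -1.27 for the IVL bin, -1.03 for the S100A8, S100A9 and S100A12 bin and 0.16 for the S100A4 bin. A change past 0.5 SD downward was counted as a fall, and 3 of the 4 bins fell, against 18% of the 5630 bins kept and 17.4% of the 449 on chromosome 1. The FLG bin had the lowest change of all 449 bins of chromosome 1, the IVL bin ranked 6 and the S100A8, S100A9 and S100A12 bin ranked 23. Over all kept bins they ranked 57, 185 and 334. The region was chosen with these scores known, so nothing is read from the counts.

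A bin was said to switch where it scored above 0.5 in one state and under -0.5 in the next, and FLG and IVL were 2 of the 4 bins of chromosome 1 that switched from A to B in TPA, while 1.56% of all kept bins did so. The remaining switches started at 114.5 and 178.5 Mb. The switch rests on scores near the limit: without correction for bin coverage neither bin switched (FLG -0.48 and IVL -0.44 in TPA), and by contacts between chromosomes, on the long arm alone or projected on the summed matrix only FLG did. The fall past 0.5 itself was seen in the first 3 bins under all 5 other ways of scoring. The share of all scored bins that fell in TPA under these ranged from 13.5% by contacts between chromosomes to 27.1% without correction for bin coverage.

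In ATRA the changes from untreated cells were smaller: -0.44 for the FLG bin, -0.57 for the IVL bin, -0.34 for the S100A8, S100A9 and S100A12 bin and 0.06 for the S100A4 bin. The IVL bin was the 1 bin past the limit, against 12% of all kept bins, and 0 of the 4 switched, against 0.48%. Of the 5 other ways of scoring, only a coverage minimum of 0.4 kept IVL past the limit (-0.44 on the long arm, -0.40 between chromosomes and -0.42 projected on the summed matrix). Without correction for bin coverage the ATRA changes were 0.001 for FLG, -0.25 for IVL and 0.003 for the S100A8, S100A9 and S100A12 bin, so the ATRA decrease depended on that correction. ATRA minus TPA was 1.23 for the FLG bin, the 1 cluster bin to count as B in TPA but A in ATRA (0.355% of kept bins), 0.70 for IVL, 0.70 for the S100A8, S100A9 and S100A12 bin and -0.10 for S100A4. This call of FLG was also near the limits and held under 1 of the 5 other ways of scoring, the coverage minimum of 0.4. TPA was at -0.48 without coverage correction, and ATRA was at 0.31 on the long arm, 0.12 between chromosomes and 0.495 when projected. Of the 4 bins 3 were past 0.5 upward, against 12.5% of kept bins.

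By the chromosome 1 score the bins just outside the cluster changed by less than 0.5 in both treated states. The left neighbour (151.5 Mb) scored 1.44 in ATRA, 1.32 in TPA and 1.40 in untreated cells, and the right neighbour (154.0 Mb) scored 1.74, 1.84 and 1.48 in the same order. Of the 8 kept bins of the left flank 1 fell in TPA, and of the 10 of the right flank 0 did. The bin that fell starts at 147.0 Mb and scored -0.27 in ATRA, -0.35 in TPA and 0.66 in untreated cells. It fell in ATRA too, with a change of -0.93, lower than that of any cluster bin in ATRA. In ATRA 1 flank bin, at 158.0 Mb, was past 0.5 upward, and it scored 1.43 in ATRA, 0.65 in TPA and 0.65 in untreated cells.

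Distant contacts on chromosome 1 gave both sides of the shift in TPA. Contacts with A bins more than 10 Mb away were at 1.78 times the distance expectation in ATRA, 1.11 in TPA and 1.80 in untreated cells for the FLG bin. They were at 1.64, 1.202 and 1.62 for IVL, and at 1.92, 1.47 and 1.95 for the S100A8, S100A9 and S100A12 bin, in the same order of states. In all 3 bins TPA was the low state, and ATRA lay beside untreated cells.

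Contacts with B bins more than 10 Mb away were higher in both treated states. For the FLG bin they were at 0.873 times the expectation in ATRA, 1.06 in TPA and 0.554 in untreated cells. For the IVL bin they were at 1.10, 1.21 and 0.739, and for the S100A8, S100A9 and S100A12 bin at 0.809, 0.952 and 0.607. The S100A4 bin stayed low, at 0.455, 0.392 and 0.437.

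As a ratio of TPA to untreated cells, distant A contacts were 0.618 for FLG (0.516 to 0.740), 0.743 for IVL (0.621 to 0.889) and 0.758 for the S100A8, S100A9 and S100A12 bin (0.644 to 0.891). These 3 intervals lay below 1, as did those of 29.2% of chromosome 1 bins. The corresponding B ratios were 1.92 (1.60 to 2.31), 1.63 (1.39 to 1.92) and 1.57 (1.31 to 1.88), above 1 in 3 of the 4 bins and in 28.3% of chromosome 1 bins. For the S100A4 bin the A ratio was 0.946 (0.826 to 1.09) and the B ratio 0.897 (0.703 to 1.15), both with intervals that include 1. Among the neighbours, A contacts in TPA were lower for the right one, at 0.827 (0.710 to 0.963), and at 0.949 (0.827 to 1.09) for the left one.

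As a ratio of ATRA to untreated cells, distant A contacts were 0.993 for FLG (0.842 to 1.17), 1.01 for IVL (0.853 to 1.204) and 0.989 for the S100A8, S100A9 and S100A12 bin (0.844 to 1.16), with 0 of the 4 intervals below 1 against 27.2% of chromosome 1 bins. The B ratios were 1.58 (1.30 to 1.92), 1.48 (1.25 to 1.76) and 1.33 (1.10 to 1.62), above 1 in 3 of the 4 bins against 19.6% of chromosome 1 bins. ATRA over TPA gave 1.61 (1.33 to 1.94) for the A contacts of FLG and 0.821 (0.697 to 0.966) for its B contacts. These distant contacts also enter the score, so they describe its make-up and are no second measurement of it.

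**Figure D2:**
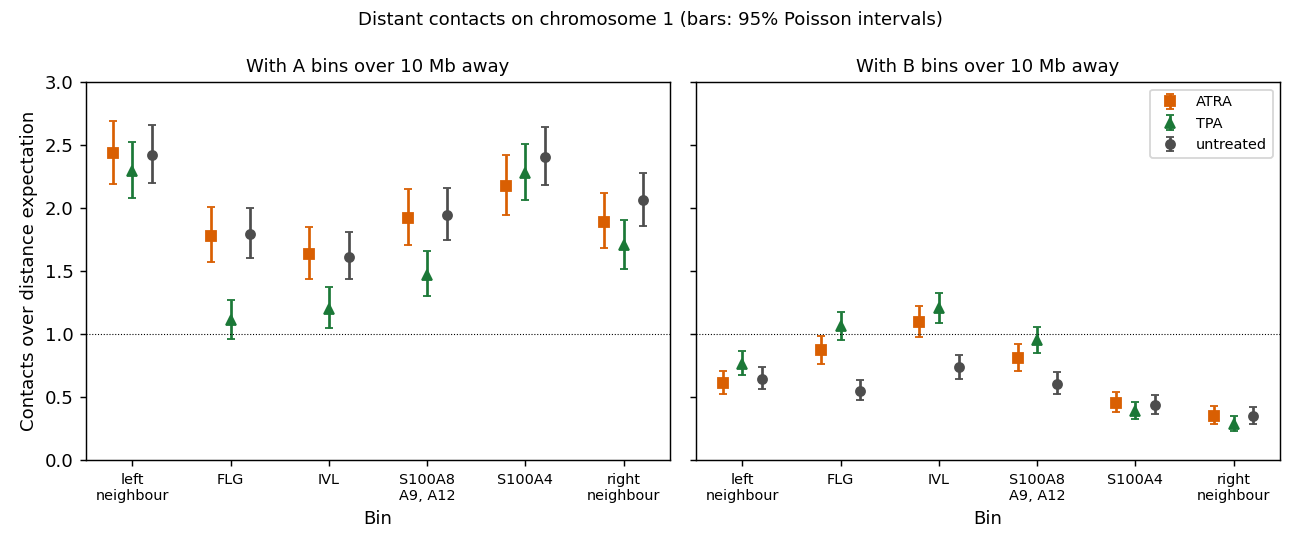
Contacts of the 4 cluster bins and their left and right neighbours with A bins (left) and B bins (right) of chromosome 1 more than 10 Mb away, as a ratio to the mean at the same distance, with 95% Poisson intervals. For FLG the TPA point on the A side, 1.11, lies below ATRA at 1.78 and untreated at 1.80, while on the B side ATRA at 0.873 and TPA at 1.06 both lie above untreated at 0.554.

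Contacts with other chromosomes enter the score of chromosome 1 only through the correction for bin coverage and through its sign, so they give a largely separate reading. Among contacts with A or B bins of the other chromosomes (1648 A and 2129 B bins, without chromosomes 14 and 21, whose eigenvectors differed between matrices), the share in A was 44.8% in ATRA (42.4 to 47.2), 44.5% in TPA (42.2 to 46.8) and 53.7% in untreated cells (51.4 to 56.0) for the FLG bin. For the IVL bin it was 44.7% in ATRA, 40.4% in TPA and 48.8% in untreated cells. For the S100A8, S100A9 and S100A12 bin it was 49.0%, 48.1% and 50.5%, and for S100A4 60.6%, 63.9% and 66.9%. Over all of chromosome 1 the share was 46.2%, 49.0% and 50.1%, so the chromosome as a whole decreased too, more in ATRA than in TPA.

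Relative to chromosome 1, the log2 ratio of A to B contacts changed in TPA by -0.47 for FLG (-0.66 to -0.27) and by -0.43 for IVL (-0.61 to -0.25). These were 2 of the 4 bins with an interval below 0, against 10.5% of the bins of chromosome 1, and they ranked 2 and 4 from the lowest of 449. For the S100A8, S100A9 and S100A12 bin the value was -0.07 (-0.25 to 0.11) and for S100A4 -0.13 (-0.33 to 0.08), so the lower score of the S100A8, S100A9 and S100A12 bin in TPA had no counterpart beyond counting error in this ratio. In ATRA the value was -0.29 for FLG (-0.48 to -0.10), the 1 bin with an interval below 0 against 8.24% of chromosome 1 bins. It was -0.01 for IVL (-0.19 to 0.17), 0.14 for the S100A8, S100A9 and S100A12 bin (-0.05 to 0.32) and -0.17 for S100A4 (-0.39 to 0.05).

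The first eigenvector of contacts between chromosomes ordered the states in the same way for the first 3 bins. Contacts within chromosome 1 enter this score only through the correction for bin coverage and through its sign. It was 0.12 in ATRA, -0.61 in TPA and 0.64 in untreated cells for FLG, and -0.19, -0.88 and 0.22 for IVL. It was 0.51, -0.15 and 0.86 for the S100A8, S100A9 and S100A12 bin. For S100A4 it was 2.78, 2.08 and 2.86, so that by this score the S100A4 bin was lower in TPA too, by 0.78. The left neighbour at 151.5 Mb followed the cluster in TPA by contacts between chromosomes, with scores of 1.23 in ATRA, 0.66 in TPA and 1.29 in untreated cells and a log2 ratio of A to B contacts of -0.22 in TPA (-0.40 to -0.05). The right neighbour at 154.0 Mb scored 2.27 in ATRA, 2.13 in TPA and 2.28 in untreated cells by these contacts, and its log2 ratio of -0.03 in TPA had an interval that includes 0 (-0.25 to 0.19).

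**Figure D3:**
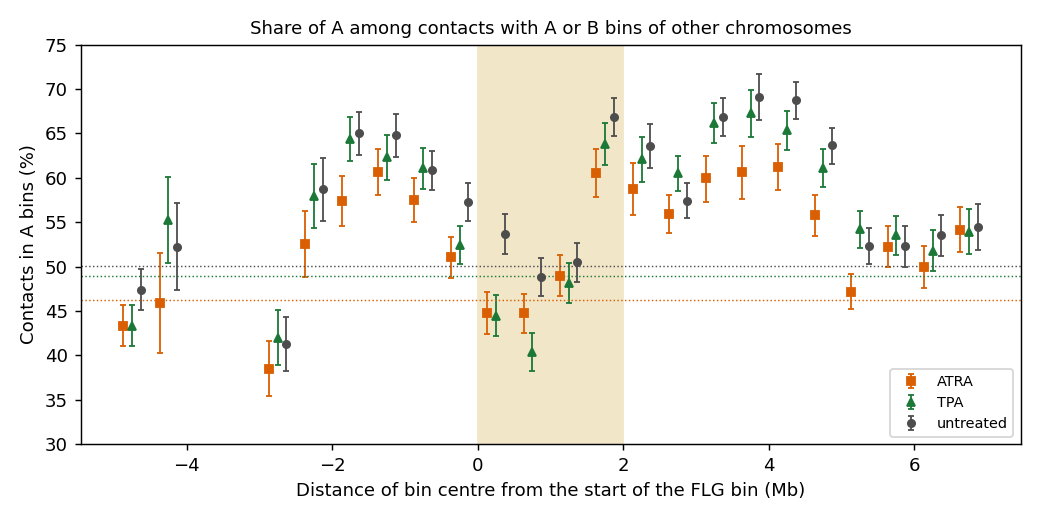
Share of A among contacts with A or B bins of other chromosomes (%) for each kept bin, against its distance from the start of the FLG bin, with 95% exact binomial intervals; dotted lines give the share over all of chromosome 1 in the same colours. The FLG bin lies at 44.8% in ATRA and 44.5% in TPA, against 53.7% in untreated cells, and the S100A4 bin lies above 60% in every state.

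Contacts between the 4 cluster bins numbered 343 in ATRA, 328 in TPA and 538 in untreated cells over 6 bin pairs. Divided by the chromosome 1 mean at the same distance they were at 0.955, 0.766 and 0.873. The ratio was 1.09 for ATRA over untreated cells (0.952 to 1.25) and 0.877 for TPA over untreated cells (0.762 to 1.01), and both intervals include 1. ATRA over TPA was 1.25 (1.07 to 1.46). As shares of all contacts, with no distance expectation, ATRA over untreated cells was 0.703 (0.613 to 0.807), on the other side of 1, and ATRA over TPA was 1.13 with an interval that includes 1 (0.970 to 1.32).

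The pairs that were low in TPA were those that join the FLG and IVL bins to the S100A4 bin. The FLG and S100A4 bins shared 18 contacts in ATRA, 7 in TPA and 38 in untreated cells, and TPA over untreated cells was 0.236 (0.0890 to 0.536). The IVL and S100A4 bins shared 25, 17 and 47 contacts, and the same ratio was 0.511 (0.275 to 0.907). These were 2 of the 6 pairs past 1.5-fold downward in TPA, against 17.7% of chromosome 1 pairs with at least 20 contacts. The FLG and IVL bins shared 74, 68 and 87 contacts, with ATRA over untreated cells at 1.49 (1.08 to 2.05) and TPA over untreated cells at 1.14 (0.820 to 1.59). The S100A8, S100A9 and S100A12 bin met the S100A4 bin 114, 119 and 189 times, at 1.36, 1.19 and 1.29 times the expectation, the highest ratio of the 6 pairs in each state.

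Contacts inside single bins were at 1.88 times the chromosome 1 mean in ATRA, 1.88 in TPA and 2.03 in untreated cells for S100A4, and between 0.819 and 1.23 for the other 3 bins. For the 4 bins together, ATRA over untreated cells was 0.952 (0.855 to 1.06) and TPA over untreated cells 1.02 (0.924 to 1.12). Against the distance expectation, no change in these contacts was detectable at this depth. As shares of all contacts, with no distance expectation, ATRA over untreated cells was 0.672 (0.603 to 0.747). TPA over untreated cells was 0.859 on that scale (0.780 to 0.947), which also holds the lower share of short-range contacts of the treated matrices.

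The first 3 bins met the flanks less often in TPA on both sides. With the left flank they had 248 contacts in ATRA, 255 in TPA and 489 in untreated cells, at 0.546, 0.461 and 0.727 times the expectation. With the right flank they had 299, 256 and 424 contacts, at 0.795, 0.548 and 0.845 times. TPA over untreated cells was 0.634 on the left (0.542 to 0.738) and 0.648 on the right (0.553 to 0.759). ATRA over untreated cells was 0.750 on the left (0.642 to 0.876) and 0.9405 on the right (0.808 to 1.09), and the second interval includes 1. Some contacts without a cluster bin were lower too. The left flank met the right flank at 0.866 in TPA (0.774 to 0.970) and 0.835 in ATRA (0.739 to 0.942). Within the left flank the ratio was 0.873 in TPA (0.800 to 0.953) and 0.949 in ATRA (0.866 to 1.04). Within the right flank it was 1.05 in TPA (0.995 to 1.10) and 1.03 in ATRA (0.974 to 1.08).

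The FLG bin met the right flank 70 times in ATRA, 50 times in TPA and 99 times in untreated cells, and TPA over untreated cells was 0.496 (0.346 to 0.703). The IVL bin met the left flank 67, 47 and 99 times, with TPA over untreated cells at 0.561 (0.388 to 0.801) and ATRA over untreated cells at 0.975 (0.704 to 1.34). The S100A4 bin met the right flank 383, 445 and 575 times, at 1.65, 1.58 and 1.61 times the expectation, and its ratios over untreated cells were 1.03 in ATRA (0.899 to 1.17) and 0.984 in TPA (0.868 to 1.12). Its contacts with the left flank were lower in both, at 0.761 in ATRA (0.590 to 0.978) and 0.732 in TPA (0.576 to 0.929), but in balanced contacts, which correct for coverage, at 0.990 in ATRA and 0.911 in TPA.

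Of the 31 pairs of the first 3 bins with flank bins that had at least 20 contacts, 21 were past 1.5-fold lower and 0 past 1.5-fold higher in TPA, with a median ratio of 0.558, where 17.7% and 17.2% of chromosome 1 pairs were. In ATRA 10 were lower and 2 higher, with a median of 0.774, against 19% lower and 18.5% higher among chromosome 1 pairs. Of the 13 such pairs of the S100A4 bin, 1 was lower and 2 were higher in TPA. The lowest ratio in TPA joined the FLG bin to the bin at 156.5 Mb (8 contacts in ATRA, 3 in TPA and 16 in untreated cells, ratio 0.171 with an interval of 0.0320 to 0.598). Next came the IVL bin with the bin at 155.0 Mb (6, 3 and 15 contacts, ratio 0.209) and the FLG bin with the bin at 150.5 Mb (13, 3 and 18 contacts, ratio 0.214). The highest joined the S100A4 bin to the bin at 158.0 Mb (12, 10 and 4 contacts), with an interval that includes 1 in TPA and a ratio of 3.53 (1.07 to 15.0) in ATRA.

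**Figure D4:**
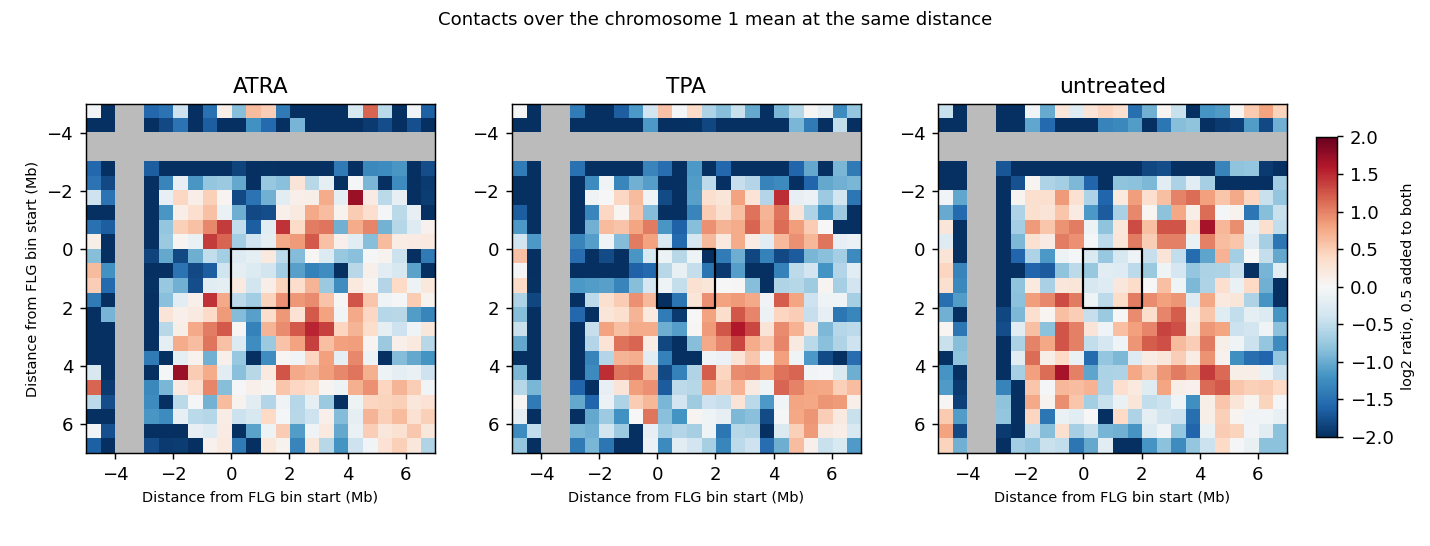
Maps of contacts among the 22 kept bins of the region for ATRA, TPA and untreated cells, as log2 of contacts over the chromosome 1 mean at the same distance with 0.5 added to both; both axes give the distance from the start of the FLG bin, grey marks bins below the coverage minimum, and the box marks the cluster. In TPA a blue cross runs from the FLG and IVL bins to both flanks (0.461 times the expectation on the left and 0.548 on the right for the first 3 bins), while the S100A4 bin is red with the right flank in all 3 maps.

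Contacts across the left edge of the cluster, counted between the 3 bins on either side of 152.0 Mb, were 181 in ATRA, 179 in TPA and 394 in untreated cells, at 0.612, 0.507 and 0.829 times the expectation. This edge ranked 102, 64 and 172 from the lowest of the 424 edges of chromosome 1. ATRA over untreated cells was 0.737 (0.615 to 0.882) and TPA over untreated cells 0.612 (0.510 to 0.732). Across the right edge at 154.0 Mb the ratio to the expectation was 1.36, 1.22 and 1.46, above the median edge in every state, with TPA over untreated cells at 0.833 (0.737 to 0.941) and ATRA over untreated cells at 0.926 (0.817 to 1.05). In TPA the edges at 151.0, 151.5, 152.5 and 153.0 Mb were also lower than in untreated cells. Their ratios were 0.785, 0.742, 0.790 and 0.737, with intervals below 1. Edges this close share bin pairs, so these values are not separate from those at the ends of the cluster. At 153.5 Mb, between the S100A8, S100A9 and S100A12 bin and S100A4, the ratio to the expectation was 0.997, 0.731 and 1.04, with TPA over untreated cells at 0.702 (0.601 to 0.817) and ATRA over untreated cells at 0.957 (0.826 to 1.11).

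Coverage, the number of contacts of a bin with all others, was lower than in untreated cells, relative to the median bin of each matrix, for 3 of the 4 bins in both treated states, and within counting error for IVL. In raw counts, from matrices with different totals, the S100A4 bin held 3292 contacts in ATRA, 3999 in TPA and 4763 in untreated cells. The S100A8, S100A9 and S100A12 bin held 3946, 4218 and 4569, the IVL bin 4067, 4181 and 4344, and the FLG bin 3578, 3795 and 4098. Relative to the median bin, the 4 bins together were at 0.886 for ATRA over untreated cells (0.867 to 0.905), 0.910 for TPA over untreated cells (0.891 to 0.929) and 0.974 for ATRA over TPA (0.952 to 0.996).

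The S100A4 bin stood apart, at 0.731 in ATRA (0.699 to 0.764) and 0.838 in TPA (0.804 to 0.875), while the FLG bin and the S100A8, S100A9 and S100A12 bin lay between 0.914 and 0.925 in both. The IVL bin was at 0.990 in ATRA (0.949 to 1.03) and 0.961 in TPA (0.921 to 1.003), and both intervals include 1. The S100A4 bin was the 1 cluster bin past 1.2-fold, lower in ATRA, against 11% of kept bins. In TPA 0 of the 4 were past it, against 0.586%. By coverage change from the lowest, the S100A4 bin ranked 4 of 449 on chromosome 1 in TPA and 12 in ATRA. Over all 5630 kept bins it ranked 46 in TPA and 165 in ATRA. The flanks were lower by an amount like that of the 4 cluster bins together. They were at 0.872 on the left and 0.862 on the right in ATRA, and at 0.912 and 0.938 in TPA. In ATRA 8 of the 18 flank bins, 3 on the left and 5 on the right, were past 1.2-fold lower. Coverage depends on cut sites, mappability and copy number as well as on contacts, and their part in these values was not tested.

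The cluster met gene-rich chromosome 19 less often in both treated states. Contacts of the 4 bins with chromosome 19 numbered 198 in ATRA, 223 in TPA and 374 in untreated cells, at 1.13, 1.03 and 1.52 times the expectation from coverage. ATRA over untreated cells was 0.743 (0.623 to 0.885) and TPA over untreated cells 0.674 (0.568 to 0.797). With gene-poor chromosome 13 they numbered 397, 441 and 321, at 0.986, 1.01 and 0.728 times the expectation, with ratios of 1.35 (1.17 to 1.57) in ATRA and 1.39 (1.202 to 1.61) in TPA. Chromosomes 19 and 13 had the highest and the lowest ratio in untreated cells. For the 4 bins together, the intervals of both ratios to the expectation include 1 in ATRA as in TPA. Both chromosomes are named as extremes of the untreated matrix, which also divides both changes. Some movement toward 1 therefore comes with that choice, and its part was not tested.

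Chromosome 22, second highest in untreated cells, was at 1.50 in ATRA, 1.08 in TPA and 1.32 in untreated cells, and chromosome 16, the third, was at 1.26, 1.04 and 1.30. ATRA over TPA was 1.39 for chromosome 22 (1.14 to 1.69) and 1.22 for chromosome 16 (1.05 to 1.41). Chromosome 4 was at 0.956, 1.08 and 0.841, with TPA over untreated cells at 1.28 (1.15 to 1.43), and chromosome 3 at 0.906, 0.901 and 0.889 did not differ beyond counting error. Chromosome 20 was at 0.759 for TPA over untreated cells (0.645 to 0.892) and 0.889 for ATRA over untreated cells (0.758 to 1.04). Chromosome 15 was at 0.809 for ATRA over untreated cells (0.702 to 0.931) and 0.784 for TPA over untreated cells (0.681 to 0.902). Of the 22 partner chromosomes 3 were past 1.2-fold higher and 6 past 1.2-fold lower in TPA, and 1 and 2 were in ATRA. Taken over other segments of 4 bins of chromosome 1 the shares were 4.59% higher and 3.36% lower in TPA, and 3.99% and 2.04% in ATRA.

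**Figure D5:**
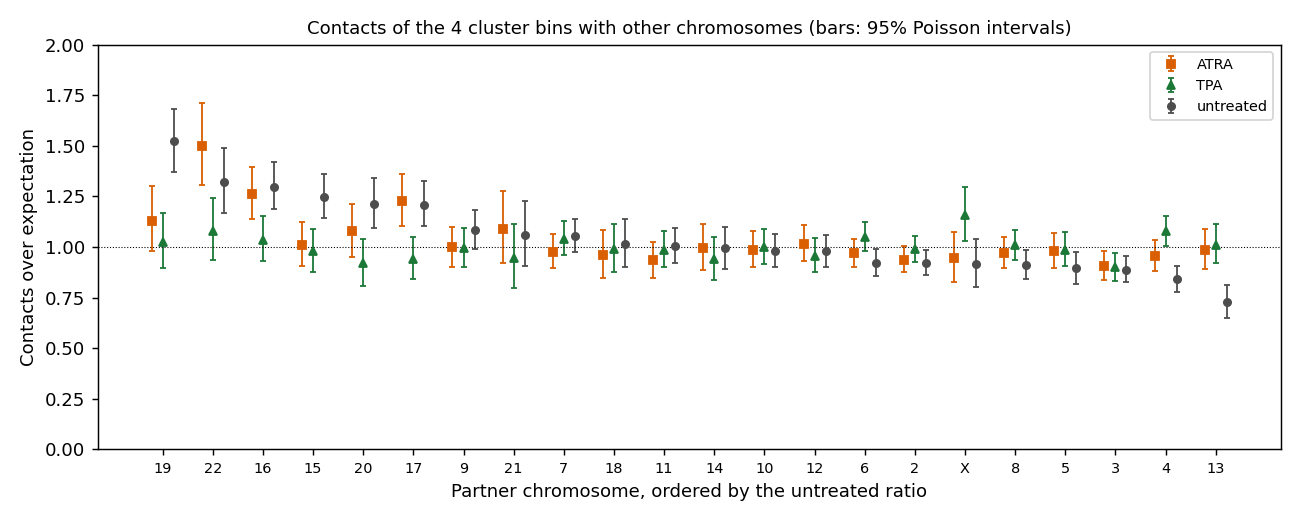
Contacts of the 4 cluster bins with each other chromosome over the expectation from coverage, with 95% Poisson intervals, ordered by the untreated ratio. Untreated points run from 1.52 for chromosome 19 to 0.728 for chromosome 13, while the same chromosomes lie at 1.13 and 0.986 in ATRA and at 1.03 and 1.01 in TPA. These chromosomes are the ends of the untreated order, so some movement toward 1 comes with that choice.

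The region also holds bin pairs with counts far above coverage in all matrices together. In the left flank 6 pairs with other chromosomes had at least 20 contacts at 10 or more times the expectation, 5 of them with chromosome 16 at 70.5 to 71.5 Mb, for bins from 147.0 to 150.5 Mb. No cluster bin had such a pair, but the FLG bin came near, with 24 contacts at 8.55 times the expectation in the bin at 71.0 Mb of chromosome 16. Without the bins at 70.5 and 71.0 Mb the ratio of the cluster to chromosome 16 was 1.19 in ATRA, 0.986 in TPA and 1.25 in untreated cells, so the order of the states was kept.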

How the data were processed

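Chromatin was digested by HindIII, per the labels' protocols. Bowtie, HOMER 4.7 and hg19 come from the submitters' processing notes, and HiCUP from the series' design text. The authors deposited 3 tables of raw counts of contacts (6203 bins, 500 kb each), whole numbers without normalization; 2 TPA and 2 untreated libraries are pooled, per the labels. Counts within a bin were divided by 2. A bin needed 0.2 times the median coverage in every matrix, which kept 5630. Matrices were balanced in 60 iterations, divided by the mean at each distance, and scored by the leading eigenvector per chromosome, with its sign set by contact with chromosome 19. Genes were placed in bins by the rule that defines the region; an hg19 annotation was not used here. Named bins are the 4 of the cluster, the neighbours and the extremes of the flanks; named chromosomes are the 3 highest, the 3 lowest and the largest changes. The members, lists, groupings of bins and limits were chosen with earlier results of these data known. Intervals are exact Poisson, binomial and conditional binomial (scipy 1.17.1, numpy 2.4.6, Python 3.11.15), and take distance expectations as known. The eigenvector and interval steps were tested on simulated data.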

Additional observations from a re-analysis of the deposited data

Results flagged for a closer look

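ATRA and TPA lay on opposite sides of untreated cells in the values that follow, each from 1 matrix per state, so no spread between cultures could be set against them. Wherever there is an interval, that of ATRA against untreated cells includes 1 (0 for the log2 ratio), so ATRA did not differ from untreated cells beyond counting error. The TPA interval also includes 1 for contacts between different cluster bins (0.762 to 1.01) and for distant B contacts of the left neighbour (0.988 to 1.43). For contacts between different bins of the cluster the ratio to untreated cells was 1.09 in ATRA and 0.877 in TPA; ATRA over TPA was 1.25 (1.07 to 1.46), but 1.13 (0.970 to 1.32) as shares of all contacts and 1.02 with contacts inside bins added. The S100A8, S100A9 and S100A12 bin met the right flank at 1.08 times untreated in ATRA and 0.768 in TPA, with ATRA over TPA at 1.41 (1.12 to 1.77). The IVL bin met distant A bins at 1.01 in ATRA and 0.743 in TPA, with ATRA over TPA at 1.36 (1.13 to 1.64). The cluster met chromosome 22 at 1.14 in ATRA and 0.819 in TPA, with ATRA over TPA at 1.39 (1.14 to 1.69). Contacts across the edge at 152.5 Mb were at 1.08 in ATRA and 0.790 in TPA, and across the edge at 151.5 Mb at 1.002 and 0.742. The left neighbour at 151.5 Mb met distant B bins at 0.947 in ATRA and 1.19 in TPA, with ATRA over TPA at 0.798 (0.657 to 0.967).

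For the S100A8, S100A9 and S100A12 bin the log2 ratio of A to B contacts, minus that of untreated cells, was 0.138 in ATRA and -0.0708 in TPA. ATRA minus TPA was 0.21 (0.02 to 0.40). For the other contacts the intervals of ATRA over TPA and of TPA over untreated cells include 1. Contacts of the S100A8, S100A9 and S100A12 bin with the S100A4 bin were at 1.06 in ATRA and 0.921 in TPA. Contacts of the S100A4 bin with the right flank were at 1.03 in ATRA and 0.984 in TPA, its contacts with distant B bins at 1.04 and 0.897, and contacts within single cluster bins at 0.952 and 1.02. The left neighbour met distant A bins at 1.01 in ATRA and 0.949 in TPA, and the right neighbour met distant B bins at 1.001 in ATRA and 0.812 in TPA. The left neighbour's score minus that of untreated cells, which has no interval, was 0.0372 in ATRA and -0.0819 in TPA.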

How the results depend on the processing

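For contacts within the cluster and with the right flank in ATRA, whose intervals include 1, an alternative lay on the other side of 1, and the causes were not tested. Among values of single bins, boundaries and chromosomes 265 stayed within their interval (for scores, a tolerance of 0.25) and 26 moved further. The mean score change of the cluster, -0.32 in ATRA, was -0.038 without correction for bin coverage, and -0.96 in TPA was -0.63 on the long arm alone; the causes were not tested. Coverage of the cluster for ATRA over untreated cells, 0.886, was 0.840 from contacts between chromosomes, 0.924 scaled to total contacts and 0.917 scaled to the median bin of chromosome 1. For TPA it was 0.939 by the last, and ATRA over TPA was 0.929 from contacts between chromosomes. As shares of all contacts with no distance expectation, contacts within the cluster were 0.703 in ATRA, against 1.09 with it, and 0.622 in TPA, those with the left flank 0.588 and 0.586, those with the right flank 0.753 and 0.715, and ATRA over TPA on the right was 1.05. This scale also holds the lower share of short-range contacts of the treated matrices. In balanced contacts the left flank in ATRA was 0.896, and the right flank was 1.22 in ATRA and 0.913 in TPA, against 0.964 for the right flank in ATRA without balancing. With contacts inside bins added, ATRA over TPA within the cluster was 1.02. Chromosome 19 in ATRA was 0.608 with an expectation from bin numbers. Leaving out the chromosome 16 bins was chosen after seeing the data. No paired analysis was possible because the libraries are pooled and the columns carry no replicate numbers, and for the same reason no library could be left out. Single bin pairs hold few contacts, and their intervals are wide.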

Other observations

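Contacts of the 4 cluster bins with mitochondrial DNA numbered 5 in ATRA, 3 in TPA and 1 in untreated cells. Per 1000 contacts of the cluster these are 0.336, 0.185 and 0.0563, with overlapping intervals, against 0.431, 0.332 and 0.177 over all bins.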
